A study of Mus musculus with 2 samples.

Results

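The Reg family of secreted C-type lectins was followed in mouse intestinal epithelial cells after incubation of intestinal segments with cholic acid. The members were taken by gene name, as every non-control probe on the array named Reg1, Reg2, Reg3a, Reg3b, Reg3d, Reg3g or Reg4, which gave 7 genes with 1 probe each among the 23856 genes named on the array. The family was chosen on the processed signals of these same 2 arrays and their difference, so every value below is a description and supports nothing further. RNA came from wild-type male mice. One array held RNA from segments kept for 2 h with 0.5 µM cholic acid (CA), a primary bile acid, and 1 array held RNA from segments kept as long with 0.05% DMSO plus 0.25% ethanol as vehicle. How many mice were used, their age, the stretch of gut and the solvent of CA are not given in the labels. The series title speaks of candidate genes for PPARα, a nuclear receptor for fatty acids, that depend on bile acids. With 1 array per condition there is no replicate, no test and no p-value, and the precision is limited by the number of arrays.

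Reg proteins are small secreted proteins built around a single lectin domain. In the mouse small intestine Reg3g and Reg3b are made by enterocytes and Paneth cells and act against bacteria close to the epithelium, Reg3g mainly against Gram-positive and Reg3b also against Gram-negative species. Their transcription is driven by microbial signals through MyD88 and by interleukin-22 through the transcription factor STAT3. Reg1 and Reg2 were first described in the pancreas, as products linked to islet regeneration, and Reg4 marks enteroendocrine and deep crypt secretory cells.

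Of the 7 genes, 6 lie in a cluster on mouse chromosome 6 and Reg4 lies alone on chromosome 3. The start regions of Reg3b, Reg3g and Reg1 are shown because the first pair, the brightest of the family, differed little between the arrays while Reg1, in the same cluster, differed most. Each runs 5′ to 3′ on the gene's own strand from 250 bases before the start to 50 bases after it (RefSeq, GRCm38.p6, where all 7 members matched by symbol). Capitals mark the TATA box letters TATAAA on the printed strand and every run of at least 12 bases that also occurs in another Reg start region.
Reg3b, chr6:78370635-78370934, plus strand: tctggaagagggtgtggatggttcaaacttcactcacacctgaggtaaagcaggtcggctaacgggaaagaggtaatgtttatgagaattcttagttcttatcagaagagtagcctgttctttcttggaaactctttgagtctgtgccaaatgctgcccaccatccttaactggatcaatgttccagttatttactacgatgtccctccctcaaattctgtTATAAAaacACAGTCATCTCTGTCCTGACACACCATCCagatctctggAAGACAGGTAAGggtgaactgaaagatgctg
Reg3g, chr6:78468825-78469124, minus strand: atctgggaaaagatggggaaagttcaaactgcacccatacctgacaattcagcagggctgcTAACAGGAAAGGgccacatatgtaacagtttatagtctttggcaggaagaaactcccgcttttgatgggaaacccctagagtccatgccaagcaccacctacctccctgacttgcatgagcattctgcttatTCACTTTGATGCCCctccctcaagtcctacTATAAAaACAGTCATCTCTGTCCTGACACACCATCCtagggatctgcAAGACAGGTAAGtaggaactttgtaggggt
Reg1, chr6:78425733-78426032, plus strand: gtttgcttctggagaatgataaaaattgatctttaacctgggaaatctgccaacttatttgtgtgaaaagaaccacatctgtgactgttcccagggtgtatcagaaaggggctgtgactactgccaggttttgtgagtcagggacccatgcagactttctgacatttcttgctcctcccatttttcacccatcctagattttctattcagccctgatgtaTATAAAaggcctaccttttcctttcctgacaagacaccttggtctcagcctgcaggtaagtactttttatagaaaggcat

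Reg3b and Reg3g shared a run of 29 bases, ACAGTCATCTCTGTCCTGACACACCATCC, at the same place, from -20 to 9 relative to the start in both. Runs of at least 12 bases covered 41 bases of Reg3b, 67 of Reg3g, 26 of Reg3a and 24 of Reg3d, and 0 bases of Reg1, Reg2 and Reg4. The letters TATAAA, searched on both strands, were present in 4 of the 7 start regions, those of Reg1, Reg2, Reg3b and Reg3g, and in 13.6% of all 32851 start regions of the same length. In those 4 genes a match on the gene's strand began 30, 30, 29 and 27 bases before the start, at -30 in Reg1 and Reg2, at -29 in Reg3b and at -27 in Reg3g. A STAT site of the form TTCNNNGAA, which reads the same on both strands, was found in Reg3b, as TTCTTGGAA from -129 to -121, and in Reg3d, as TTCCCAGAA from -238 to -230, and in 8.30% of all start regions. The letters AGGTCA, the half-site bound by nuclear receptors, were found on either strand in 1 member, Reg3d, and in 16.3% of all regions. Exact copies of the direct repeat of this half-site with a 1-base spacer, the form bound by PPAR, were found in 0 of the 7 and in 13 of all regions. Exact copies of its inverted repeat with a 1-base spacer, the form bound by the bile acid receptor FXR, were found in 0 of the 7 and in 3 of all regions, and both repeats contain the half-site. The letters AGATAA, to which GATA factors bind, were found on either strand in Reg4 alone among the members and in 11.2% of all regions. Each of these is a match of letters and not a shown binding site.

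The arrays shared a slide and a scan. Of the non-control probes, 24446 were well above background on the CA array and 24200 on the vehicle array, and 22612 on both. No non-control spot was saturated. Signals were scaled by the 75th percentile of the probes above background on both arrays, an intensity of 741 on the CA array and 1060 on the vehicle array, which adds 0.52 to every unscaled log2 difference. All 12 enterocyte markers, the brush border gene Vil1 among them, were above background on both arrays. A log2 difference (CA minus vehicle) could be had for 12859 genes, and its median was 0.08. For 213 probes with at least 8 spots each, single-spot log2 differences had a median SD of 0.09, which describes the array and not animals.

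After scaling, 1 Reg gene, Reg1, stood at least 2-fold lower on the CA array. Of the 7 members, 6 were well above background on both arrays and passed to a difference. Before scaling all 6 were lower on the CA array, as were 79% of all measured genes, so that count says little of the family. Of these 6, 1 was at least 2-fold lower with CA and 0 at least 2-fold higher, against 2.05% of all measured genes at least 2-fold lower and 6.57% at least 2-fold higher. The split of all genes moved with the scaling: 23.8% of the genes at least 2-fold apart were lower with CA as scaled here, against 48.5% under quantile normalization, 42.8% under loess and 97.8% with spike-in scaling. Below 0 were 5 of the 6, against 42.6% of all genes. The median of the 6 was -0.45, against 0.08 over all genes. In bulk RNA, fewer cells of a type and less RNA per cell cannot be told apart.

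**Figure D1:**
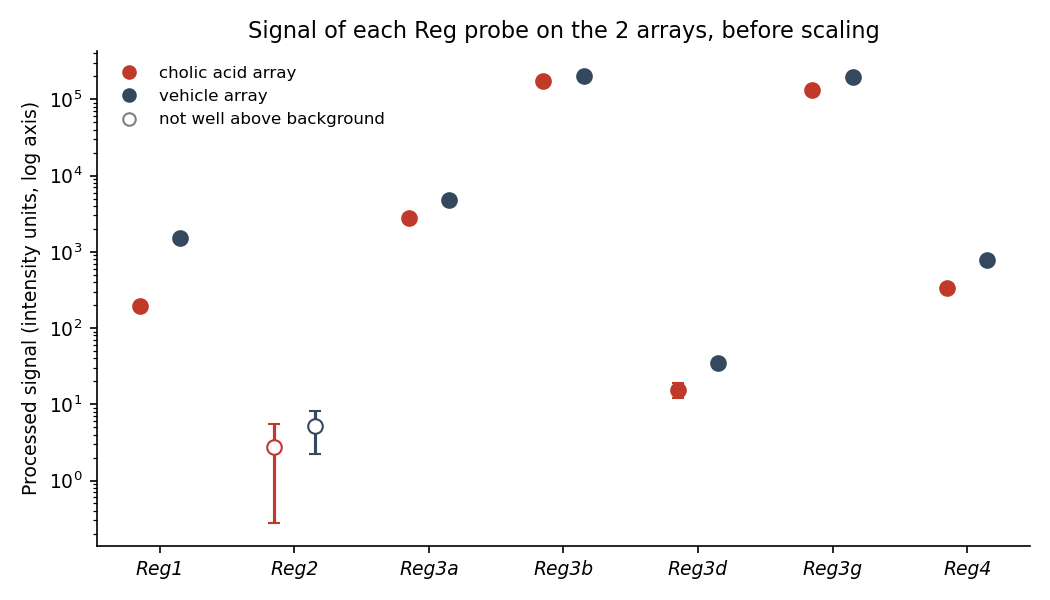
Processed signal of each Reg probe (intensity units, log axis) on the CA array (left of each pair) and the vehicle array (right), before scaling, with Feature Extraction's error of the signal as bars; the lower bar of Reg2 on the CA array is cut short because its error is as large as its signal. Before scaling most genes (79%) were lower on the CA array, and so were the Reg signals, with the widest gap at Reg1; Reg2 is at background.

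The antibacterial lectins were the brightest members, and neither was 2-fold apart under the settings run. Reg3b had a processed signal of 174000 on the CA array and 200000 on the vehicle array. Reg3g, the peptidoglycan-binding lectin, had 134000 on the CA array and 196000 on the vehicle array. Both were bright on both arrays, far under the scanner's saturation value of 778124 in pixel brightness (mean pixel signals of 168000 with CA and 192000 with vehicle for Reg3b), with 0 saturated pixels. After scaling, the log2 difference was 0.32 for Reg3b and -0.03 for Reg3g, each with a Feature Extraction error of 0.20. This error was the same for the far dimmer Reg3a, as for a fixed share of the signal. It and the combined errors below therefore measure no spread between spots, arrays or animals. The spread of the differences of the 1000 genes nearest in signal was 0.38 for both (robust SD), and their median was -0.07. Reg3b lay 0.39 above the median of these 1000 genes, about as far as their spread, and Reg3g 0.04 above it. Only 30 genes had signals of at least 100000 on both arrays, so most of these 1000 were dimmer. The sign of Reg3b was not settled by the data. It was below 0 under quantile normalization (-0.44), in the authors' processed values (-0.43) and with spike-in scaling (-0.60). Above 0 it was under 8 of 11 alternative settings. Of these 8, the brightest probe, no filter on dim probes and the stricter filter could only repeat the main value, as Reg3b has 1 bright probe. Spike-in scaling put the median of all genes at -0.83, below Reg3b. With no filter on dim probes that median was 0.40, above Reg3b. Reg3g was at -0.72 under quantile normalization and at -0.73 in the authors' processed values, where the median of all genes was -0.06 in each. The median and spread of the nearest genes were not computed under those settings. Among the 30 genes with signals of at least 100000 on both arrays, the median difference was 0.35, 16 lay above Reg3b and 6 below Reg3g. That median lay above the 0.08 of all genes, and also above the differences of both Reg3b and Reg3g.

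Reg3a, the other Reg3 paralogue with clear signal, had 2780 on the CA array and 4740 on the vehicle array. Its log2 difference was -0.25 (1.19-fold lower), with an error of 0.20 and a spread of 0.37 among the nearest genes, so it lay within that spread. Reg3d, a paralogue related to the hamster islet protein INGAP, was dim, with 15.5 on the CA array and 34.6 on the vehicle array. The lowest signal well above background was 13.0 on the CA array and 14.6 on the vehicle array, so the CA value sat close to the limit of measurement. The log2 difference of Reg3d was -0.64, with an error of 0.36. The genes nearest in signal had a median of 0.38 and a spread of 0.49, so Reg3d lay at -1.03 relative to them. With normexp background correction it was 0.15, so its sign turned with the background correction. The median of all genes was 0.19 under normexp, so Reg3d lay below that median there too.

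Reg1, a lectin of pancreas and small intestine, was the one member with a wide difference. It had a processed signal of 194 on the CA array and 1510 on the vehicle array. Feature Extraction's errors of these signals were 19.7 with CA and 151 with vehicle. The scaled log2 difference was -2.44, or 5.44-fold lower with CA, with an error of 0.21 and against a spread of 0.37 among the nearest genes. Of the 12859 measured genes, 6, with Reg1 counted, lay at or below this value. It ran from -3.36 to -2.11 over the 11 alternatives and was at least 2-fold lower in each. Among these, the brightest probe, no filter on dim probes and the stricter filter could not move a gene with 1 clear probe. They repeated the main value of -2.44 and add nothing to that count. The share of all genes at least 2-fold lower was 4.2% with the percentile taken over every non-control probe, 3.06% with median centring, 3.31% under quantile normalization, 2.95% under loess, 0.809% with normexp and 3.33% in the authors' processed values. It was 2.08% with the brightest probe of each gene, 2.63% with no filter on dim probes, 1.94% with a stricter filter, 35.5% with spike-in scaling and 2.95% after a lowess on probe GC content. Reg1 minus each of the other 5 measured members ran from -1.73 (Reg4) to -2.76 (Reg3b), with combined errors of 0.29 to 0.42. Reg2, also first known from the pancreas, did not reach the limit of well above background on the 2 arrays, with 2.76 on the CA array, where the software put in a surrogate value, and 5.21 on the vehicle array, and it has no difference.

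Reg4, the member on chromosome 3, had 334 on the CA array and 782 on the vehicle array. Its log2 difference was -0.71 (1.64-fold lower), with an error of 0.20 and a spread of 0.37. It was below 0 in all 11 alternatives, from -1.63 to -0.61, and past 2-fold in 1 of them, spike-in scaling. As for Reg1, the settings of probe choice and dim-probe filter could only repeat the main value. At a limit of 1.5-fold, 3 of the 6 members were lower, Reg1, Reg4 and Reg3d, against 7.71% of all measured genes.

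**Figure D2:**
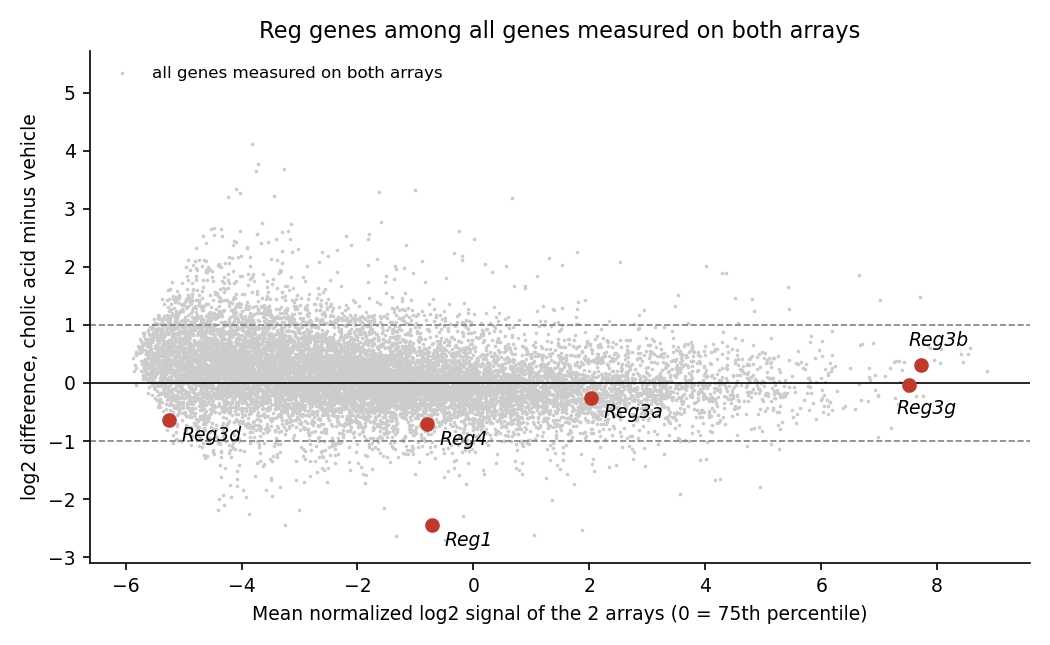
Log2 difference (CA minus vehicle) against mean normalized log2 signal for all 12859 genes measured on both arrays (grey) and the 6 measured Reg genes (red), with dashed lines at 2-fold. Reg3b (0.32, below 0 under quantile normalization) and Reg3g (-0.03) sit at the bright end, Reg3d at the dim end, and Reg1 at -2.44 below the cloud.

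In order of their differences as scaled here the members ran Reg1, Reg4, Reg3d, Reg3a, Reg3g, Reg3b. Reg1 came lowest under every setting run, but the order of the rest changed with the processing. In the authors' processed values and under quantile normalization it ran Reg3d, Reg4, Reg3g, Reg3b, Reg3a, with Reg3a highest at -0.22 in both. Loess and normexp also changed it, with Reg3b highest in both. Neighbours in this order after Reg1 lay close: Reg3d was above Reg4 by 0.07 with a combined error of 0.42, Reg3a above Reg3d by 0.39 with an error of 0.42, and Reg3a minus Reg3g was -0.22 with an error of 0.29. Reg3b lay above Reg3g by 0.35, with an error of 0.29. The gap between Reg1 and Reg4, the next in order, was -1.73 with an error of 0.29. Over the 21 pairs of 60-base probes the longest shared run was 7 bases.

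**Figure D3:**
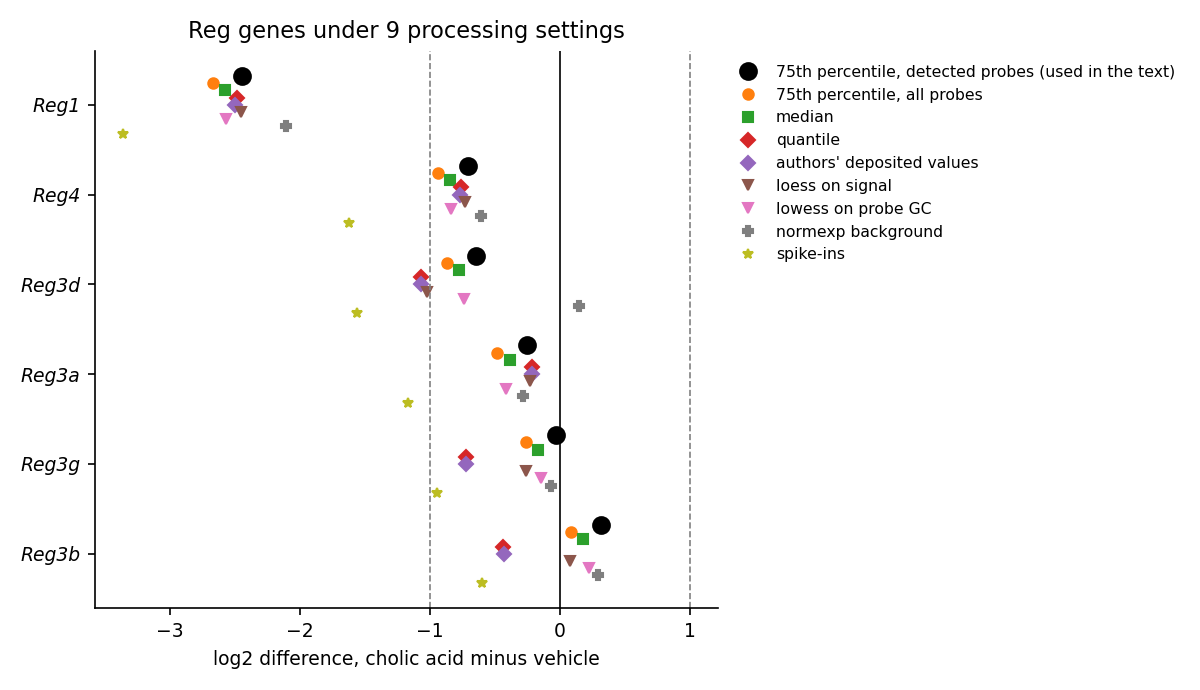
Log2 difference of each measured Reg gene (CA minus vehicle) under 9 processing settings, the setting used in the text in black, with dashed lines at 2-fold. Reg1 lies beyond the 2-fold line in all 9, whereas Reg3b falls on both sides of 0.

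Along the cluster, genes with wide and narrow differences lay side by side. The probes of the 6 clustered genes spanned 93.2 kb of chromosome 6 (mm9, per the file headers). The Reg1 probe lay at 78378527 to 78378586, between that of Reg2 at 78357959 to 78358018 and that of Reg3g at 78416420 to 78416479. The Reg3b probe lay at 78323323 to 78323382, that of Reg3d at 78325868 to 78325927 and that of Reg3a at 78333635 to 78333694. The Reg4 probe matched 98037005 to 98040251 on chromosome 3, a stretch longer than the probe. No annotation of exons or UTRs in mm9 was used here. Reg1 at -2.44 therefore stood between a gene at background and one at -0.03. Within 500 kb of the cluster the array held 3 other probes, 0 of them with a gene name, and the 2 above background were at 0.28 and 0.22. Within 500 kb of Reg4 it held 19 probes of 11 named genes and an unnamed probe, with 7 probes measured, 6 of them above 0. Phgdh, the first enzyme of serine synthesis, was at 1.37 and 1.03 on its 2 probes, the receptor gene Notch2 at 1.19, and the vesicle fusion gene Sec22b at 0.31 and 0.29. Pde4dip was at -0.74.

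**Figure D4:**
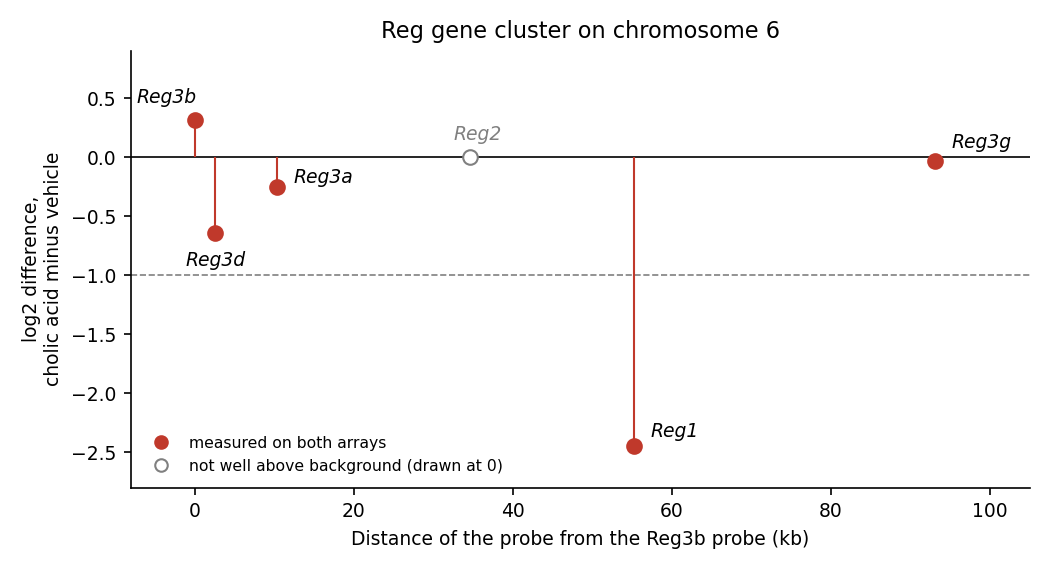
Log2 difference (CA minus vehicle) of the 5 measured Reg genes on chromosome 6 against the distance of their probes from the Reg3b probe in kb, with a dashed line at 2-fold lower and Reg2, which has no difference, as an open circle drawn at 0. Reg1 lies at -2.44 while Reg3d lies at -0.64 and Reg3a, Reg3g and Reg3b lie between -0.25 and 0.32; Reg3b is below 0 under quantile normalization and Reg3d above 0 with normexp.

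Among measured genes of at least median signal, the 3 whose log2 difference was nearest to that of Reg1 over these 2 arrays were Slc46a1, the proton-coupled folate transporter (-2.53), the transcription factor Onecut2 (-2.30) and the kinase Sgk1 (-2.62). The likeness rests on a single difference per gene.

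The receptor and signalling lists upstream of the Reg genes had medians near that of all genes. In the list of interleukin-22, -6 and -10 receptors and the STAT3 pathway, 17 of 25 genes were measured, with a median of 0.06. At least 2-fold higher with CA were 2, and 0 were lower, against 6.57% and 2.05% of all genes. The 2 were Il10ra (3.56-fold), a receptor chain of interleukin-10 that was dim at 45.6 with CA and 18.3 with vehicle, and Il6ra (2.04-fold), the interleukin-6 receptor. Il22ra2, the soluble decoy receptor of interleukin-22, was well above background on the CA array alone, at least 6.58-fold higher there. The cytokine genes Il22, Il6, Il23a and Il10 were not well above background on either array. Stat3 was at 0.30, the STAT3 feedback gene Socs3 at -0.11 and the receptor chain Il22ra1 at -0.03 with its 2 probes going opposite ways, these 3 named after their values were seen. In the list of Toll-like receptors and the MyD88 pathway, 14 of 17 were measured, with 0 at least 2-fold apart and a median of 0.09. Its widest differences were those of the inhibitor Nfkbia (0.89), the receptor Nod1 (0.74) and the adaptor Tirap (0.62), and Myd88 itself, named after its value was seen, was at -0.38. The receptors Tlr2, Tlr4 and Tlr5 were at background on both arrays.

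Other epithelial genes that STAT3 or interleukin-22 induce lay on both sides of 0. Of 28, 15 were measured, with 2 at least 2-fold higher with CA and 0 at least 2-fold lower, against 6.57% and 2.05% of all genes. The 2 were Duoxa2 (9.78-fold), the maturation factor of a dual oxidase, and the nitric oxide synthase Nos2 (3.19-fold). The dual oxidase gene Duox2, named after its value was seen, was at 0.20 and dim, with 28.8 on the CA array and 35.8 on the vehicle array. The list median was 0.20. A further 7 had only a bound. Among these the goblet cell product Retnlb was at least 97.7-fold higher with CA, the lipopolysaccharide-binding protein Lbp at least 3.79-fold, Fut2 at least 2.29-fold and Lrg1 at least 2.18-fold higher, and the phospholipase Pla2g2a at least 18.6-fold lower. The acute phase genes Saa1 (0.37) and Saa2 (0.61) and the immunoglobulin carrier Pigr (0.70, 2 probes at 0.13 and 1.27) lay above 0. The siderophore-binding Lcn2 (-0.88) and Dmbt1 (-0.45) lay below 0. These 5 were chosen after their values were seen.

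The list of proposed partners of Reg proteins showed 0 genes at least 2-fold apart among 6 measured of 8, with a median of 0.05. Of these 8, Nr1h4 (-0.11), Gpbar1 (0.06) and Nr0b2, at background on both arrays, are genes of bile acid signalling. The count and the median thus do not describe Reg partners alone. The growth factor receptor Egfr was at -0.81 and the shared cytokine receptor chain Il6st at 0.58, the list's widest, followed by the asialoglycoprotein receptor gene Asgr2 (0.13). Extl3, a proposed Reg receptor, was at 0.04, named after its value was seen. Among other C-type and soluble lectins, 11 of 18 were measured, with a median of -0.22. Clec2d was 2.32-fold lower with CA and Cd209d 2.03-fold higher, and Mbl2, a mannose-binding lectin, was well above background on the CA array alone, at least 97.8-fold higher. The bright goblet cell lectin Zg16 was at -0.22 and the galectin Lgals3 at -0.50, both chosen after their values were seen.

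**Figure D5:**
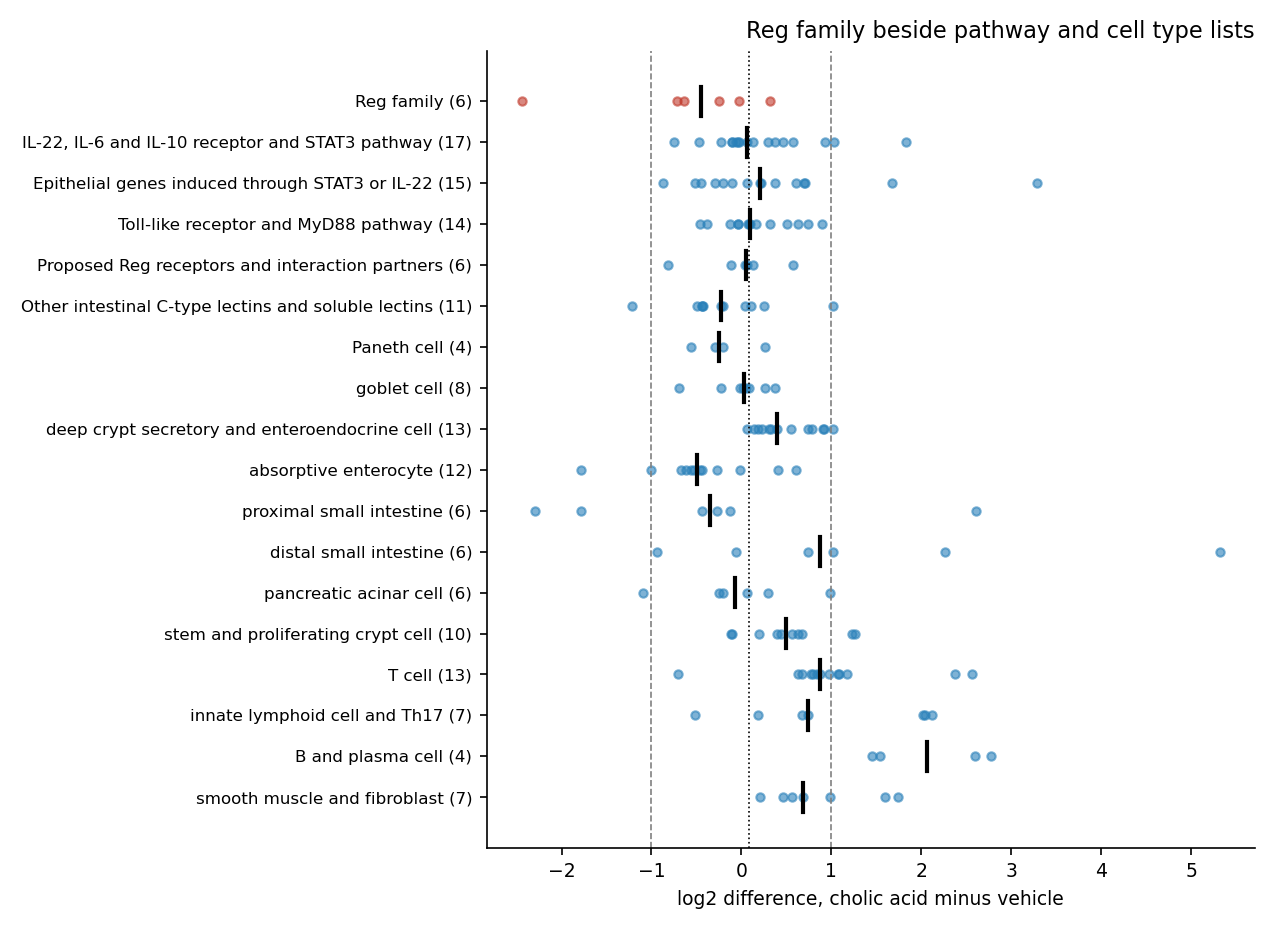
Log2 difference (CA minus vehicle) of the measured members of each list, with the number measured in brackets, the list median as a black bar, the median of all genes as a dotted line and dashed lines at 2-fold. The Reg family (red) has a median of -0.45, near that of absorptive enterocyte markers (-0.49). The medians of T cell and B cell markers lie above 0, with 1 T cell marker, Cd4, below 0.

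Markers of the cells that make Reg proteins were set beside the family. Absorptive enterocyte markers had a median of -0.49, with 10 of 12 below 0, against 42.6% of all genes. At least 2-fold lower were 2 of these markers, the apolipoprotein Apoa4 and the glucose transporter Slc2a2, against 2.05% of all genes. Their summed signal was 1198 on the CA array and 1127 on the vehicle array, in units of each array's 75th percentile, with the bright members Fabp2 (0.61) and Anpep (0.40), named after their values were seen, above 0. Of the Paneth cell list, 4 of 10 genes were measured, with a median of -0.25 and 3 below 0, and Pla2g2a, above background with vehicle alone, was at least 18.6-fold lower. The matrix protease Mmp7 was at -0.57, the lysozyme Lyz1 at -0.29 and the ribonuclease Ang4 at 0.26, and the summed signal was 9.42 with CA and 10.8 with vehicle. Goblet cell markers had a median of 0.03 over 8 genes, with 5 above 0, and Retnlb, above background with CA alone, was at least 97.7-fold higher. Enteroendocrine markers, beside which Reg4 may be read, had 13 of 13 measured genes above 0, while 42.6% of all genes were below 0. Their median was 0.39, and their summed signal 59.4 with CA and 46.3 with vehicle, whereas Reg4 was at -0.71. Less the median of all genes, this list was at 0.31, against -0.02 with no filter on dim probes. Neurod1 of that list was at background on both arrays. The part of these cell types in the Reg differences was not tested.

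Pancreatic acinar cells, a known source of Reg1 and Reg2, gave little signal. Of 19 acinar genes on the array 11 were not well above background on either array, among them the trypsinogens Prss1 and Prss2, the carboxypeptidase Cpa1 and the amylase Amy2a5. The 6 measured ones had a median of -0.07, with Clps 2.13-fold lower, and a summed signal of 0.925 with CA and 1.12 with vehicle. The lipases Pnlip and Pnliprp1 were above background on the vehicle array alone, at least 2.32-fold and 1.60-fold lower with CA. Markers of gut position and of immune cells differed too. The counts below stand beside 6.57% of all measured genes at least 2-fold higher with CA and 2.05% at least 2-fold lower. Proximal markers had a median of -0.35 over 6 measured genes, with Onecut2 4.92-fold and Apoa4 3.45-fold lower and S100g 6.12-fold higher, and a summed signal of 243 with CA and 342 with vehicle. Distal markers had a median of 0.88 over 6, and a summed signal of 14.9 with CA and 13.3 with vehicle. Higher with CA past the 2-fold limit were 3 of them, Fabp6 (39.9-fold), Slc10a2 (4.79-fold) and Gcg (2.02-fold). Below 0 were 2 of them, Cubn (-0.94) and Mep1a (-0.07), named after their values were seen. Fgf15 of that list was at background on both arrays. Less the median of all genes, the distal list was at 0.79, against 0.34 with no filter on dim probes. T cell markers had a median of 0.87, with 12 of 13 above 0 and a summed signal of 256 with CA and 159 with vehicle. The 5 of them at least 2-fold higher with CA were Cd2 (5.92-fold), Lat (5.20-fold), Gzmb, Cd3d and Cd8b1. Markers of innate lymphoid and Th17 cells had a median of 0.74 over 7 of 12 genes, with Il7r, Thy1 and Ccr6 between 4.04-fold and 4.36-fold higher, but their defining cytokines Il22, Il17a and Il17f were at background on both arrays. B and plasma cell markers had a median of 2.07, with 4 of 4 at least 2-fold higher, Cd79b (6.83-fold), Pou2af1 (6.06-fold), Cd79a and Mzb1, but a summed signal of 1.38 with CA and 0.262 with vehicle. Smooth muscle and fibroblast markers had a median of 0.69 over 7 genes, with Cnn1 and Dcn at least 2-fold higher. Stem and proliferating crypt cell markers had one of 0.50 over 10, with Mcm5 and Cdk1 at least 2-fold higher, 2 below 0 and Lgr5 at background. Less the median of all genes, that list was at 0.42, against 0.18 under quantile normalization and 0.04 with no filter on dim probes. The part of gut position and of immune or stromal cells in the Reg differences was not tested.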

How the data were processed

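RNA of 2 samples was hybridised to 1-colour Agilent arrays (design 028005), with cRNA amplified and labelled with Cy3, per the labels' protocols. Spot intensities in the deposited scanner files were made with Feature Extraction 10.7.1.1, per the file headers; version 9.5.1.1 stands in the submitters' processing notes. Spatial and multiplicative detrending were on within each array and dim spots got surrogates, per the file headers. Other deposited columns hold signal errors, background and pixel values, surrogate values and flags of 0 or 1. The authors also deposited processed intensities for 55681 probes whose sorted columns differed by at most 0.346%, as after quantile normalization on a linear scale.

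Flagged spots (119 with CA, 124 with vehicle) were left out. Log2 intensities, averaged per probe, were scaled by the 75th percentile of the probes well above background on both arrays (40.6% of probes). Genes were named by RefSeq accession, then symbol, and averaged over such probes. Genes above background on 1 array alone got a bound: the brighter signal against the higher of the dim signal and the lowest signal above background on that array. Members and lists were chosen with earlier results of these data known. Named were all Reg genes, list members past 2-fold (up to 6) or, with none, the 3 widest, plus genes nearest to a Reg gene at least 2-fold apart and neighbours within 500 kb. Alternatives covered scaling, background (normexp, limma 3.58.1, offset 50), the authors' values, dim probes and probe choice. Spike-in scaling and a lowess on probe GC content (statsmodels 0.14.6, span 0.3) were added after seeing the data. Scripts ran in Python 3.11.15 and were tested on simulated data.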

Additional observations from a re-analysis of the deposited data

How the results depend on the processing

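No paired analysis was possible because each condition has 1 array, and no array could be left out. The count of Reg genes at least 2-fold lower, 1 as reported, was 3 at a 1.5-fold limit and 4 with spike-in scaling. Of all genes, 7.71% and 35.5% were lower by these rules. The count was 2 under quantile normalization, loess and the authors' processed values, against 3.31%, 2.95% and 3.33% of all genes. In each of these the second gene beside Reg1 was the dim Reg3d. The count at least 2-fold higher was 0 under each of the settings run. With the percentile taken over every non-control probe, the log2 differences were -2.67 for Reg1, -0.48 for Reg3a, 0.087 for Reg3b, -0.26 for Reg3g and -0.94 for Reg4. With spike-in scaling they were -3.36 for Reg1, -1.17 for Reg3a, -0.60 for Reg3b, -1.56 for Reg3d, -0.95 for Reg3g and -1.63 for Reg4, on 8 spike-in probes whose unscaled difference ran from 0.20 to 0.48. Quantile normalization gave -0.44 for Reg3b, -1.07 for Reg3d and -0.72 for Reg3g, the authors' processed values -0.43, -1.07 and -0.73 for the same genes, and loess 0.078, -1.02 and -0.26. Normexp gave -2.11 for Reg1 and 0.15 for Reg3d. Less the median of all genes, the Reg list was at -0.53 as reported, -0.80 with no filter on dim probes and -0.29 with the stricter filter, which drops Reg3d. With no filter the list of proposed partners was at -0.30 and the Toll-like receptor list at -0.24. Spike-in scaling put the median of all genes at -0.83. The cause of each other shift was not tested. Of all genes, 845 were at least 2-fold higher and 264 lower as reported, 429 and 540 with the percentile over every probe, 553 and 393 with median centring, 451 and 425 under quantile normalization, 506 and 379 under loess, 454 and 428 in the authors' values, 271 and 104 with normexp, 572 and 379 after the GC lowess, 103 and 4559 with spike-in scaling, 2936 and 628 with no filter and 501 and 206 with the stricter one. Spike-in scaling and the GC lowess were chosen after seeing the data. Signal close to background limits Reg3d and Reg2, and scaling of the brightest probes limits Reg3b and Reg3g.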
